A study of Mus musculus with 35 samples.

Results

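The miR-297, miR-466, miR-467 and miR-669 families of the mouse were followed in liver after a single dose of the carcinogen N-ethyl-N-nitrosourea (ENU). Every assay of these names on a 384-well real-time PCR array was taken, whatever its letter, arm or star, which gave 16 of the 376 miRNAs on the array. There were 1 assay of miR-297 (miR-297b-3p), 8 of miR-466 (miR-466a-5p, miR-466b-5p, miR-466c-5p, miR-466d-5p, miR-466d-3p, miR-466f-5p, miR-466f-3p and miR-466g), 4 of miR-467 (miR-467a*, miR-467b*, miR-467c and miR-467e) and 3 of miR-669 (miR-669a, miR-669b and miR-669c). Of these, 5 carried 5p in their name, 3 carried 3p and 2 carried a star, and for 6 the name gave no arm.

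A total of 35 livers were measured, 1 array each, from female Big Blue mice that were 6 months old at treatment. Every mouse, controls included, carried the Big Blue transgene, a bacterial reporter used for counting mutations. After a single intraperitoneal dose of 120 mg/kg ENU, 4 mice each were taken at post-treatment days (PTDs) 30 and 120, and 5 each at the earlier PTDs, 1, 3, 7 and 15. The control group comprised 7 mice given the vehicle dimethylsulfoxide, of which 3 were labelled day 1 and 4 were labelled day 30, and every comparison with controls used these same 7 livers unless a smaller set of controls is named.

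The members belong to a large cluster of microRNA genes found in rodents within Sfmbt2, a gene of the Polycomb group that is expressed from the paternal copy in the mouse placenta. A microRNA hairpin is cut into a duplex whose strands, the 5p and the 3p arm, are made in equal amounts and then kept or degraded separately, so that the arms of 1 hairpin can differ widely in level. Both arms of miR-466d and of miR-466f were on the array. In whole liver, a change in the number of cells that express a miRNA and a change in the amount per cell cannot be told apart.

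In the RefSeq annotation of GRCm38.p6, 82 hairpin genes carry the names of these 4 families, and 72 of them lie within the span of Sfmbt2. Every member had at least 1 hairpin gene there. Members differed in copy number, with 12 hairpin genes for miR-669a, 10 for miR-467a, 8 for miR-466b, 3 for miR-466c and 1 each for miR-297b, miR-466a, miR-466d, miR-466g, miR-467b, miR-467c, miR-467e, miR-669b and miR-669c. For miR-466f, 3 genes lay within Sfmbt2 and 1 lay elsewhere. An assay of a member with several copies reads them together, and how far assays of near-identical members read each other was not tested. Along the gene, Mir297b and Mir466d were direct neighbours within this series of hairpins, at places 60 and 61 of the 72.

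Levels are given as -ΔCt, the mean threshold cycle of the 4 reference RNAs (snoRNA251, snoRNA202, snoRNA142 and U6) minus that of the miRNA in the same array, so that a value higher by 1 stands for a doubling of the RNA. The reference RNAs averaged a Ct of at most 23.5 in any array. The hepatocyte markers miR-122, miR-192 and miR-194 had Cts of 13.7 to 18.1 in the controls, and miR-124, miR-9, miR-133a and miR-133b, which mark neurons or muscle, had Cts of 29.6 to 36.2. The run dates of the arrays were grouped by month into 3 run periods, which the records do not name as batches. The PTD 3, 7 and 15 groups and the day 1 controls fell in period 1 and the PTD 30 and 120 groups in period 2. The PTD 1 group fell in period 1 apart from replicate 4, and the day 30 controls were split between period 2 (replicates 1 and 2) and period 3 (replicates 3 and 4). Comparisons with same-period controls kept only the ENU livers of that period too, so at PTD 1 they left out replicate 4. The difference between the 2 reverse transcription control wells of an array, a measure that no miRNA enters, was above 0 in 12 of 35 arrays, namely replicates 3 and 4 of the day 30 controls, 3 of 5 at PTD 3, 4 of 5 at PTD 7 and 3 of 5 at PTD 15. In the day 1 controls this difference was -0.26, -0.20 and -0.24, so same-period controls were not matched to these ENU groups in it. The deposited array of replicate 3 at PTD 3 does not hold the values that the study tabulates for it, and main values of PTD 3 are therefore also given without it.

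The members were of moderate to low abundance in control liver. The median of their mean Cts was 31.3, against 29.4 for all 376 miRNAs. Levels in the controls went from -7.02 ± 0.51 (SD, n = 7) for miR-467e down to -14.32 ± 1.52 for miR-466a-5p, that is from rank 174 to rank 375 of 376. Between these came, in order, miR-466f-3p (-7.02 ± 1.07), miR-466g (-7.53 ± 1.71), miR-669a (-7.90 ± 1.04), miR-467a* (-8.00 ± 0.86), miR-467c (-8.18 ± 0.85), miR-466d-3p (-8.79 ± 0.86), miR-467b* (-9.35 ± 1.72), miR-669c (-9.40 ± 0.48), miR-466c-5p (-9.49 ± 0.61), miR-297b-3p (-9.62 ± 1.01), miR-466f-5p (-10.05 ± 0.84), miR-669b (-10.84 ± 1.04), miR-466b-5p (-12.20 ± 0.96) and miR-466d-5p (-13.75 ± 1.21). The differences between neighbours in this order were within 1 SD of their difference per array in 14 of 15 pairs. The exception was miR-467c over miR-466d-3p, with a difference of 0.60 ± 0.52, higher in 7 of 7 controls. The order compares different primer pairs, whose efficiencies are not known.

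The assays named 5p filled 5 of the 7 lowest places. In both hairpins with a pair of arms the 3p arm was higher in every control, with a 5p minus 3p difference of -4.96 ± 1.20 for miR-466d and -3.03 ± 1.11 for miR-466f. The lowest 2 members were close to the detection limit of 40 cycles. The Ct of miR-466d-5p was above 35 in 16 of 35 arrays, 5 of them controls, and that of miR-466a-5p in 28 arrays, 6 of them controls. Only 1 member well in all was Undetermined, that of miR-466b-5p in replicate 4 of PTD 30, and it was left out. The instrument set its NAW flag on this well and on those of miR-466a-5p in replicate 2 of the day 1 controls and of miR-466d-5p in replicate 4 of PTD 1, and the Cts of the latter pair were used as deposited.

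**Figure D1:**
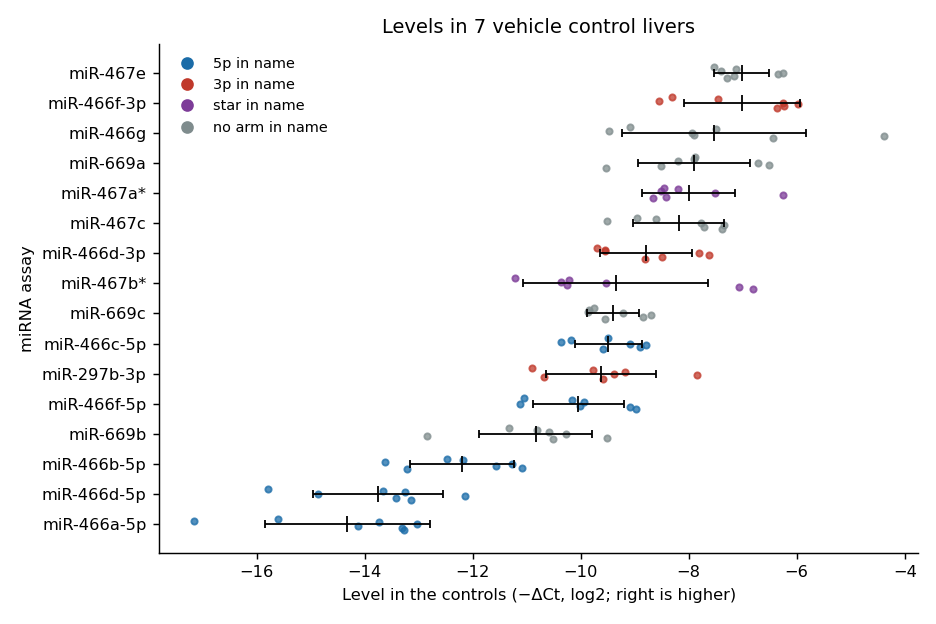
Level of each of the 16 members in the 7 control livers, as -ΔCt on a log2 scale with higher levels to the right. Points are livers, coloured by the arm in the assay name, and black marks are the mean ± SD. Most assays named 5p lie at the low end, from -9.49 for miR-466c-5p to -14.32 for miR-466a-5p.

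To find which members were altered by ENU, each PTD group was compared with the 7 controls in limma, with all 376 miRNAs in the fit. A differentially expressed miRNA (DEM) had an unadjusted p under 0.01 and a fold change above 2. Of the 96 comparisons of a member with the controls, 4 met this rule. Adjusted p values are from limma over all 376 miRNAs, and exact permutation p values are two-sided and not adjusted over these 96. None of the 16 members was a DEM at PTD 1, PTD 3 or PTD 30, where 1.33%, 2.13% and 1.6% of all miRNAs were. At PTD 7 there were 2 (1 up and 1 down) against 9.84% of all miRNAs, at PTD 15 there was 1 (up) against 11.4%, and at PTD 120 there was 1 (up) against 1.33%. Counts of 2, 1 and 1 of 16 members were near these background shares or rested on a single miRNA.

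The medians of the members and of the array are given side by side. The median log2 fold change of the 16 members was, from the first group to the last, -0.46, -0.07, 0.05, 0.23, 0.53 and 0.85. Over all 376 miRNAs it was -0.37, 0.02, 0.19, 0.36, 0.54 and 0.46. At PTD 1 all 16 members lay below the control mean, from -1.07 for miR-466g to -0.05 for miR-466a-5p, as did 300 of the 376. This count depended on the livers compared and the scaling. With same-period controls, which also left out replicate 4 of PTD 1, 9 of 16 members and 108 of 376 miRNAs lay below 0 there. Scaled to the array's median Ct, with all livers, 10 and 185 did. With same-period controls the members' medians over the 6 groups were -0.02, 0.54, 0.82, 1.14, -0.13 and 0.13, against 0.21, 0.63, 0.84, 1.05, 0.04 and -0.02 over all miRNAs. Without replicate 3 the members' median at PTD 3 was 0.12, with no DEM, and the log2 fold changes there were 1.15 for miR-466d-5p, 0.07 for miR-466d-3p and -0.68 for miR-669a, against -0.19 for miR-466d-3p and -1.04 for miR-669a with it.

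**Figure D2:**
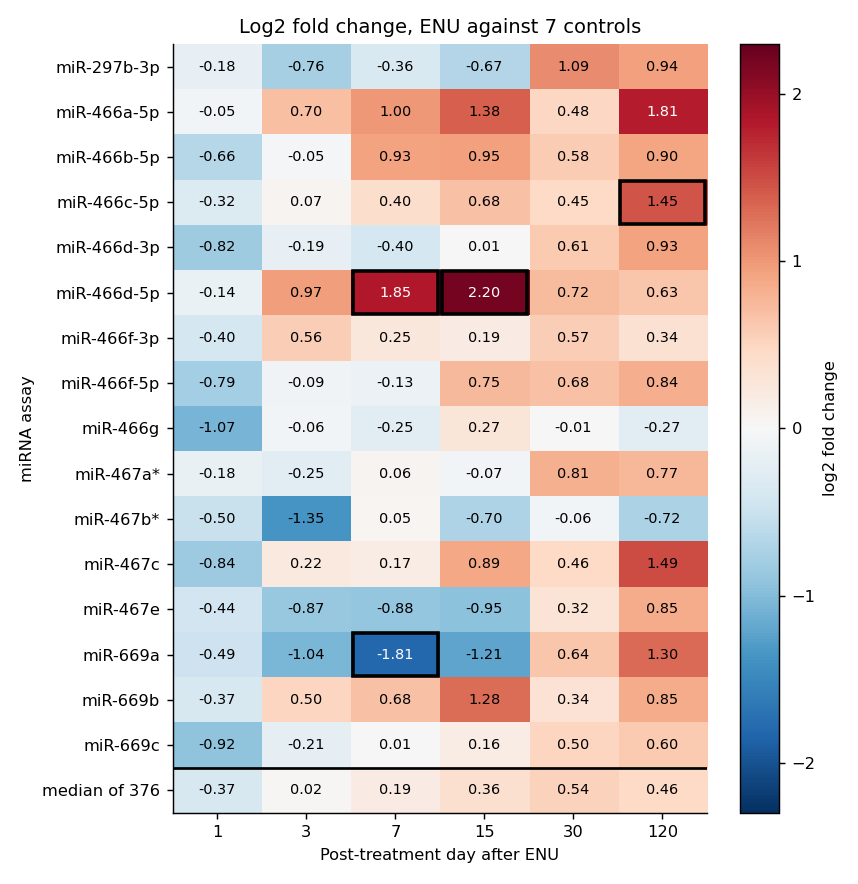
Log2 fold change of each of the 16 members (rows) at each PTD (columns) against the 7 controls, with the median over all 376 miRNAs in the bottom row. Red is higher and blue lower than the controls, and the 4 black frames mark the DEMs: miR-466d-5p at PTDs 7 and 15, miR-669a at PTD 7 and miR-466c-5p at PTD 120.

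By subfamily, the medians at PTDs 7 and 15 were spread as follows, and the differences between subfamilies were not tested. The 8 miR-466 assays had median log2 fold changes of 0.33 at PTD 7 and 0.71 at PTD 15, with 5 and 8 of 8 above 0 and 1 DEM at each. The 4 miR-467 assays had 0.05 and -0.39, with 3 and 1 of 4 above 0 and no DEM. The 3 miR-669 assays had 0.01 and 0.16, with 2 of 3 above 0 at both and 1 DEM, at PTD 7. The single miR-297 assay was at -0.36 and -0.67. By arm, the 5 assays named 5p, all of miR-466, had medians of 0.93 and 0.95 at PTDs 7 and 15, and the 3 named 3p had -0.36 and 0.01. Scaled to the array's median Ct instead, the 5 assays named 5p had medians of 1.23 and 0.98. With only same-period controls, the medians at PTDs 7 and 15 were 1.14 and 1.35 for miR-466, 0.73 and 0.43 for miR-467, 0.44 and 0.59 for miR-669, 1.48 and 1.504 for the assays named 5p and 0.41 and 0.82 for those named 3p. The signs of the miR-467 median at PTD 15 and of the 3p median at PTD 7 thus turned, while the median over all 376 miRNAs went from 0.19 to 0.84 at PTD 7 and from 0.36 to 1.05 at PTD 15, and both medians stayed below it.

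The DEM with the highest log2 fold change against the 7 controls was miR-466d-5p, the fainter of its hairpin's arms in control liver. Its level in the controls went from -15.80 to -12.14 with a median of -13.42. At PTD 7 the 5 livers had -10.61, -12.89, -11.62, -12.23 and -12.15, and at PTD 15 they had -11.00, -12.18, -11.82, -11.27 and -11.50. At PTD 7, 2 of 5 livers lay above every control, and at PTD 15, 4 of 5 did, while the fifth was within the control range by a small margin. The log2 fold change was 1.85 (SE 0.58, 3.61-fold) at PTD 7, with an adjusted p = 0.072 in limma. At PTD 15 it was 2.20 (SE 0.54, 4.59-fold), with an adjusted p = 0.020 in limma. The exact permutation test gave p = 0.014 and p = 0.0063. With only those controls that shared its run period, the log2 fold changes were 2.33 and 2.68, both DEMs. With run period as a term in 1 fit of all groups, they were 1.79 and 2.14, neither of them a DEM.

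At the other PTDs miR-466d-5p was not a DEM. At PTD 1 the livers had -14.17, -11.91, -14.58, -16.00 and -12.84, from below the lowest to above the highest control. At PTD 3 they had -14.94, -12.91, -13.51, -11.09 and -11.49, with replicates 4 and 5 above every control and the others within their range. At PTD 30 they had -13.72, -11.29, -11.82 and -15.30, and at PTD 120 they had -12.34, -13.57, -12.75 and -13.83. Log2 fold changes were -0.14 (SE 0.71), 0.97 (SE 0.72), 0.72 (SE 0.79) and 0.63 (SE 0.61) at these 4 PTDs, with exact permutation p = 0.84, 0.25, 0.45 and 0.37. With same-period controls miR-466d-5p was at 0.86 at PTD 1, in the opposite direction, and at 1.44 at PTD 3. The 0.86 also left out replicate 4 of PTD 1, the well with the NAW flag. With all 7 controls but without that replicate, miR-466d-5p was at 0.38 at PTD 1. With Cts above 35 set to 35, the log2 fold changes of miR-466d-5p fell to 1.18 at PTD 7, no longer a DEM, and 1.54 at PTD 15, still a DEM. At PTD 7 the call was also lost without any 1 of replicate 2 of the day 1 controls, replicate 1 of the day 30 controls or replicates 1, 3 and 5 of the ENU group, with values from 1.53 to 1.91. It was lost as well with the day 30 controls alone (1.49), with the reverse transcription control wells as a covariate (1.57) and with the replicate block (1.90), under which the PTD 15 call held at 1.84, 1.99 and 2.13. The level of miR-466d-5p averaged -12.05 in the 12 arrays with a control well difference above 0 and -13.35 in the other 23. The former were higher by 0.66 among the controls, by 1.89 at PTD 3 and by 0.07 over PTDs 7 and 15, and the part of the control wells was not tested beyond the covariate.

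The opposite arm, miR-466d-3p, was not a DEM at any PTD. Its control levels went from -9.70 to -7.62 with a median of -8.81. At PTD 7 the livers had -9.18, -10.23, -8.01, -9.77 and -8.74, and at PTD 15 they had -8.45, -8.84, -9.39, -9.23 and -7.97. At PTD 7, 2 of 5 lay below every control and the rest within the control range, and at PTD 15 all 5 lay within it. The log2 fold changes were -0.40 (SE 0.48) and 0.01 (SE 0.43), with exact permutation p = 0.44 and 0.98. With only those controls that shared its run period they were 0.41, in the opposite direction, and 0.82. At PTD 1 the livers had -8.77, -10.61, -10.40, -9.51 and -8.77, and at PTD 3 they had -8.91, -8.62, -10.03, -8.68 and -8.67. At PTD 30 they had -8.35, -8.05, -7.77 and -8.56, and at PTD 120 they had -8.84, -7.18, -8.50 and -6.91. Only at PTD 120 did livers, 2 of 4, lie above every control. The log2 fold changes at these 4 PTDs were -0.82, -0.19, 0.61 and 0.93, and with same-period controls they were -0.04, 0.62, -0.47 and -0.15, with the sign turned at the last 3.

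**Figure D3:**
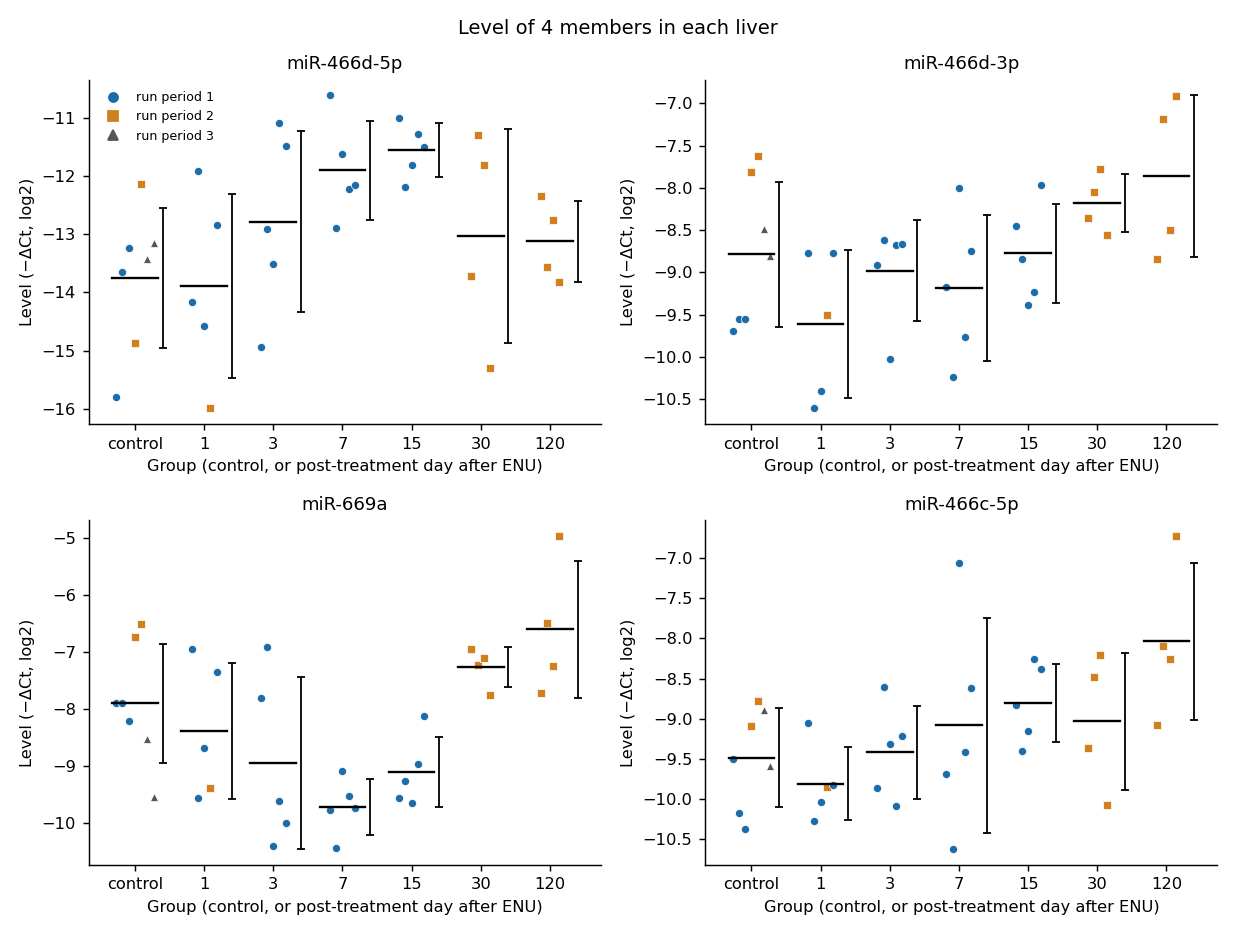
Level of miR-466d-5p, miR-466d-3p, miR-669a and miR-466c-5p in every liver, as -ΔCt on a log2 scale, by group. Points are livers, with shape and colour for the run period, horizontal lines are group means and bars are ± SD. For miR-466d-5p the PTD 15 livers lie between -12.18 and -11.00, whereas for miR-466d-3p 2 of the PTD 7 livers lie below every control and the other PTD 7 and 15 livers within the control range.

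Whether the balance of the arms changed was asked within each array, where the reference RNAs cancel. For miR-466d the 5p arm was below the 3p arm in every liver. The difference, 5p minus 3p, was between -7.06 and -3.69 in the controls, with a mean of -4.96 ± 1.20. At PTD 7 it was -1.43, -2.66, -3.62, -2.46 and -3.41 (mean -2.72 ± 0.87), and at PTD 15 it was -2.55, -3.34, -2.43, -2.03 and -3.54 (mean -2.78 ± 0.64). All 10 of these livers had a smaller difference than any control, the nearest pair being -3.62 at PTD 7 and -3.69 in a day 1 control. The shift against the controls was 2.25 at PTD 7 and 2.19 at PTD 15, each with an exact permutation p = 0.0038 and an adjusted p = 0.023 over the 12 arm comparisons, two-sided. The adjusted p lay between 0.055 and 0.091 without any 1 of replicates 1, 2 and 4 of PTD 7 or replicates 1 to 4 of PTD 15.

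At the other PTDs the arm difference of miR-466d overlapped the controls. It was -5.40, -1.29, -4.17, -6.49 and -4.07 at PTD 1 and -6.02, -4.29, -3.48, -2.41 and -2.82 at PTD 3. At PTD 30 it was -5.36, -3.24, -4.05 and -6.74, and at PTD 120 it was -3.49, -6.38, -4.25 and -6.92. The shifts were 0.68, 1.16, 0.11 and -0.30, with adjusted exact p = 0.73, 0.63, 0.89 and 0.89, and at PTD 3 the shift was 1.08 without replicate 3 and 1.71 without replicate 1. Without replicate 2 of PTD 1 the shift there was -0.07, and at PTDs 30 and 120 the sign also turned with single samples left out. At PTD 3 the 3 arrays with a control well difference above 0 were those at -3.48, -2.41 and -2.82. In the controls the 2 such arrays were at -4.93 and -4.34, within the range of the other 5, and the part of the control wells in the arm difference was not tested. With Cts above 35 set to 35 the shifts at PTDs 7 and 15 were 1.58 and 1.53, both with an adjusted exact p = 0.0076. With the 3 controls of run period 1 alone they were 1.92 and 1.86, with adjusted exact p = 0.14 and 0.11. All 10 livers lay above these 3 controls as well, and with 3 against 5 livers the smallest exact p that the design allows is 0.018 before adjustment.

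For the arms of miR-466f no shift passed the test. Its 5p arm had control levels from -11.12 to -8.98 (median -10.01), and its 3p arm from -8.55 to -5.97 (median -6.36). At PTD 7 the 5p arm had -9.96, -10.45, -10.46, -10.21 and -9.81 and the 3p arm -6.50, -7.23, -6.36, -7.30 and -6.44, all within the control ranges. At PTD 15 the 5p arm had -9.60, -9.16, -9.16, -10.04 and -8.55, of which only the last was above every control, and the 3p arm -7.02, -6.89, -6.98, -6.81 and -6.44. At PTDs 1 and 3 the 5p arm had -9.31, -12.53, -11.89, -10.34 and -10.11, then -10.17, -9.35, -11.10, -10.13 and -9.93, and at PTDs 30 and 120 it had -9.46, -9.25, -9.03 and -9.74, then -9.13, -9.31, -9.53 and -8.85. The 3p arm had -7.43, -8.78, -8.16, -5.49 and -7.24 at PTD 1 and -4.46, -6.77, -7.09, -7.19 and -6.80 at PTD 3, and -6.53, -5.65, -6.29 and -7.34 at PTD 30 and -7.64, -6.49, -5.69 and -6.88 at PTD 120. Both arms overlapped the 7 controls in every group. For the 3p arm this overlap came from controls of other run periods, since the 3 controls of period 1 had -8.30, -7.46 and -8.55 and every liver of PTDs 3, 7 and 15 lay above them. With these controls miR-466f-3p was at 1.64, 1.34 and 1.27 at the 3 PTDs, against 0.56, 0.25 and 0.19 with all 7. Both PTD 3 values were raised by replicate 1, at -4.46, beside -7.19 to -6.77 in the other livers and a mean of -7.02 in the 7 controls. The difference of the arms was -3.03 ± 1.11 in the controls, -3.41 ± 0.44 at PTD 7 and -2.47 ± 0.46 at PTD 15. The 6 shifts against the controls went from -0.64 at PTD 3 to 0.56 at PTD 15, with adjusted exact p between 0.73 and 0.89. The PTD 3 shift rested largely on replicate 1, at -5.71, beside -4.01 to -2.59 in the other livers of that group. With same-period controls the shifts were -0.78 (also without replicate 4 of PTD 1), -1.40, -1.13, -0.19, 1.53 and 1.92 over the 6 PTDs. The sign turned at PTD 15, and the adjusted exact p lay between 0.11 and 0.64. That the arm shift differs between miR-466d and miR-466f was not tested.

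**Figure D4:**
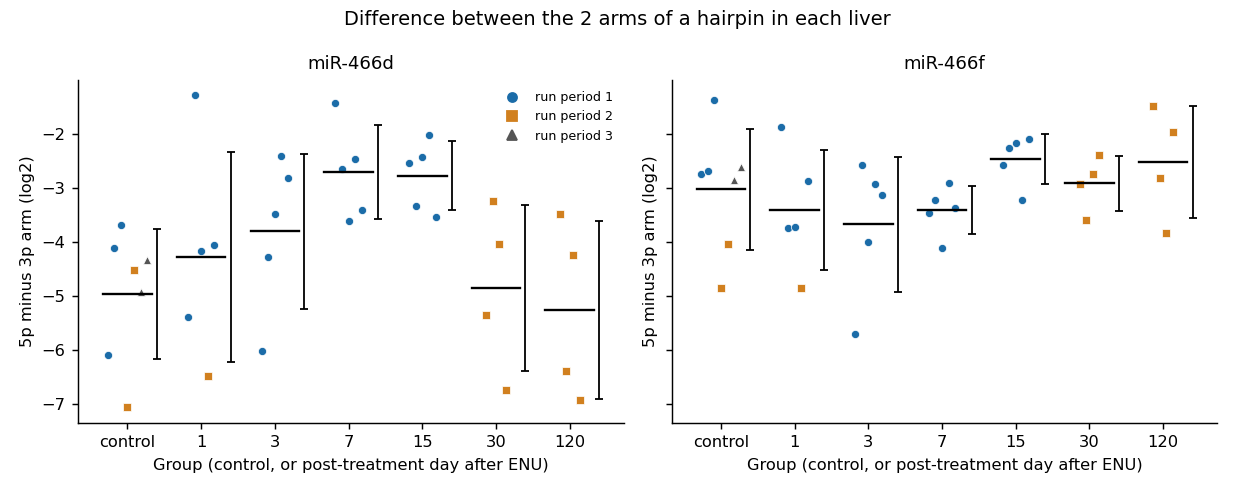
Level of the 5p arm minus that of the 3p arm (log2) within each liver, for miR-466d on the left and miR-466f on the right, by group. Points are livers, with shape and colour for the run period, lines are means and bars ± SD. For miR-466d the livers of PTDs 7 and 15 lie between -3.62 and -1.43, all above the highest control at -3.69, and for miR-466f every group overlaps the controls.

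The remaining 5p assays of miR-466 included the DEM of PTD 120, miR-466c-5p, which has 3 hairpin genes within Sfmbt2. Its control levels went from -10.36 to -8.78 with a median of -9.50. At PTD 120 the livers had -9.08, -8.09, -8.25 and -6.73, of which 3 were above every control. The log2 fold change was 1.45 (SE 0.46, 2.73-fold) with an adjusted p = 0.45 in limma, and exact permutation gave p = 0.012. Without replicate 4 it was 1.01, and against the 2 controls of its run period it was 0.90, neither of them a DEM. At PTD 1 the livers had -9.05, -10.27, -10.03, -9.85 and -9.83, at PTD 3 they had -9.86, -8.61, -9.31, -10.08 and -9.21, and at PTD 7 they had -9.69, -10.62, -7.06, -9.41 and -8.62. At PTD 15 they had -8.83, -9.40, -9.15, -8.26 and -8.39, and at PTD 30 they had -9.36, -8.48, -8.21 and -10.07. Each of these groups overlapped the controls, with the -7.06 of PTD 7 far above them. In these 5 groups miR-466c-5p was at -0.32, 0.07, 0.40, 0.68 and 0.45 on the log2 scale against the control mean, and with same-period controls at 0.22, 0.60, 0.93, 1.21 and -0.09. The 0.40 at PTD 7 rested on replicate 3, at -7.06. The other livers there were at -9.69, -10.62, -9.41 and -8.62, on both sides of the control mean of -9.49.

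For miR-466a-5p, 1 of the 2 faintest members, there were log2 fold changes of 1.00, 1.38 and 1.81 at PTDs 7, 15 and 120, with exact permutation p = 0.24, 0.075 and 0.10. Its SD in the controls was 1.52, with Cts up to 38.5. For miR-466b-5p they were 0.93, 0.95 and 0.90, with 3 of 5 livers above every control at both PTD 7 and PTD 15 and exact permutation p = 0.088 and 0.16. At PTD 120 its value rested on replicate 4, without which miR-466b-5p was at 0.18. For miR-466a-5p at PTD 7 and PTD 15, leaving out replicate 2 of the day 1 controls gave 0.53 and 0.91. The assay of miR-466g, with no arm in its name, was between -1.07 and 0.27 over the 6 PTDs against the 7 controls. With same-period controls miR-466g was at -0.25, 1.09, 0.90, 1.42, 0.38 and 0.12, and with run period as a term in 1 fit it was a DEM at PTD 15, at 1.56.

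The 1 down-regulated member was miR-669a, which has been described as a repressor of MyoD in progenitors of heart muscle and had the most hairpin genes of all members. Control levels went from -9.54 to -6.51 with a median of -7.89. At PTD 7 the livers had -9.77, -10.44, -9.08, -9.52 and -9.73, 3 of them below every control and the other 2 within the range by way of a single control at -9.54. At PTD 15 they had -9.55, -9.25, -9.65, -8.96 and -8.12. At PTD 1 they had -6.94, -9.56, -8.68, -9.39 and -7.34, and at PTD 30 they had -6.93, -7.22, -7.10 and -7.76, all of the latter within the control range. The log2 fold change was -1.81 at PTD 7 (SE 0.48, 3.51-fold lower), with an adjusted p = 0.036 in limma and p = 0.0088 by exact permutation. At PTD 15 it was -1.21 with an adjusted p = 0.12 in limma, which is not a DEM. The PTD 7 call held with the controls of its run period, at -1.71, and under each sample left out in turn, from -2.09 to -1.58, and was lost with the day 30 controls alone, at -1.89 with an adjusted p = 0.097 in limma, with the replicate block, at -1.71, and in the methods' t-test on 2 to the power of -ΔCt.

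The Ct of miR-669a was higher in the arrays with a reverse transcription control difference above 0, among the controls too. Its Ct was 30.8 to 32.2 in the 12 arrays in which the difference of those wells was above 0. In the controls it was 30.8 and 31.9 in the 2 such arrays and 28.5 to 29.5 in the other 5. Those 2 controls are also the 2 arrays of run period 3, so that the control wells and the run period cannot be told apart among the controls. At PTD 3 it was 32.2 in each of 3 such arrays and 29.0 and 29.3 in the other 2, which gave levels of -7.80, -6.90, -10.41, -9.60 and -9.99 for replicates 1 to 5. At PTDs 7 and 15 the 3 arrays without such a difference had Cts of 31.7 to 32.5, as high as the other 7. With the difference as a covariate the log2 fold change at PTD 7 was -1.33, still a DEM, with an adjusted p = 0.10 in limma, and at PTD 15 it was -0.87.

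Among the controls and at PTD 3, the Cts of miR-467e were also higher in the arrays with such a difference above 0. Its Ct was 29.5 and 29.6 in the 2 such controls and 28.0 to 28.7 in the other 5, and at PTD 3 it was 30.5 to 30.6 in 3 arrays and 28.9 and 29.2 in 2. As -ΔCt, however, these 2 controls were at -7.16 and -7.29, within the -7.53 to -6.25 of the other 5. Their mean level was lower by 0.29. At PTDs 7 and 15 the 3 arrays without such a difference had Cts of 30.1 to 30.5, within the 29.8 to 31.0 of the other 7. The log2 fold changes of miR-467e were -0.87, -0.88 and -0.95 at PTDs 3, 7 and 15, with adjusted p = 0.46, 0.12 and 0.088 in limma and exact permutation p = 0.045, 0.0076 and 0.018. None was a DEM, since neither the limma p nor the fold change passed its threshold at any of them. Without replicate 3 of PTD 3, miR-467e was at -0.63 there. At each of these 3 PTDs, 4 of 5 livers lay below every control. The other miR-467 assays had 0.22, 0.17 and 0.89 for miR-467c and -0.25, 0.06 and -0.07 for miR-467a* at these PTDs, and -1.35, 0.05 and -0.70 for miR-467b*. With same-period controls miR-467c was at 1.07, 1.01 and 1.73 there. The part of the control wells in the levels of miR-669a and miR-467e was not tested beyond the covariate.

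**Figure D5:**
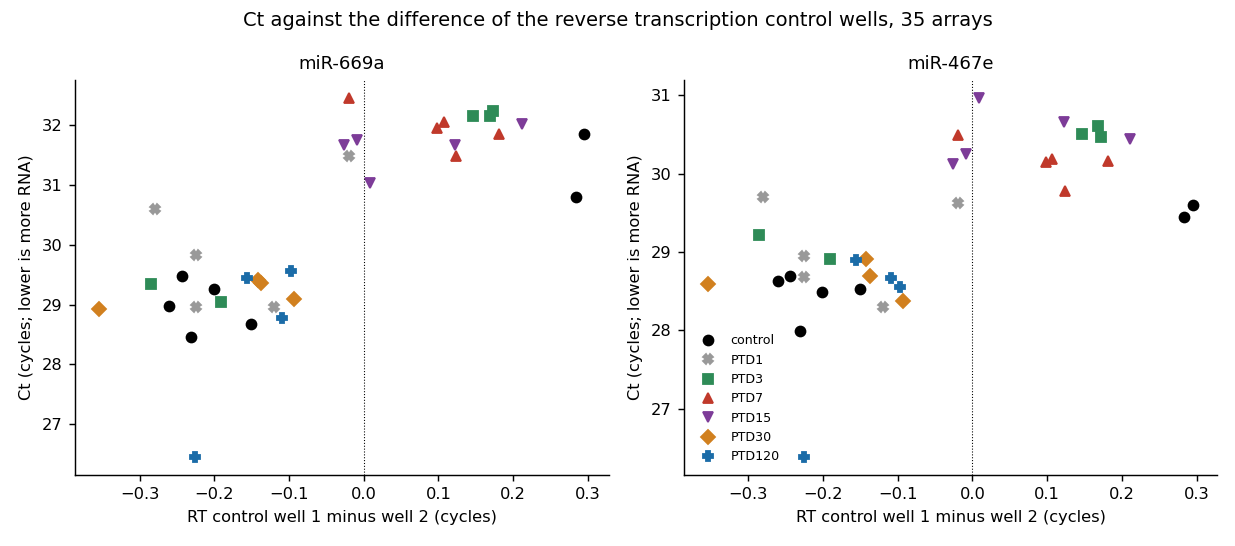
Ct of miR-669a (left) and miR-467e (right) in all 35 arrays against the difference between the 2 reverse transcription control wells, both in cycles, with a marker for each group. A lower Ct stands for more RNA. Arrays with a difference above 0 have Cts of at least 30.8 for miR-669a and 29.5 for miR-467e, controls and PTD 3 arrays included.

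The remaining miR-669 and miR-467 assays had no DEM. For miR-669b the log2 fold change was highest at PTD 15, at 1.28 with an adjusted p = 0.095 in limma, and for miR-669c it was lowest at PTD 1, at -0.92 with an adjusted p = 0.67 in limma and 4 of 5 livers below every control. For miR-467c it was highest at PTD 120, at 1.49 with an adjusted p = 0.45 in limma. For miR-467b* it was lowest at PTD 3, at -1.35 with an adjusted p = 0.64 in limma, beside a control SD of 1.72, and was -0.84 without replicate 3 of PTD 3. With same-period controls miR-467b* was at -0.11 at PTD 3 and, in the opposite direction to the value with all 7, at 0.54 at PTD 15. In the controls, the 2 arrays of run period 3 were higher than the other 5 by 3.37 for miR-467b* and by 2.96 for miR-466g.

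From one PTD to the next, members were called at a single step. In 1 fit of all 7 groups, none of the 16 was called between PTDs 1 and 3, 3 and 7, 7 and 15 or 30 and 120, where 6.12%, 0.266%, 0.798% and 0.532% of all miRNAs were. Between PTD 15 and PTD 30, 3 members were called, all higher at PTD 30, against 14.6% of all miRNAs. They were miR-669a, by 1.85 (SE 0.65, adjusted p = 0.056 in limma), miR-297b-3p, by 1.76 (SE 0.59, adjusted p = 0.047) and miR-467e, by 1.27 (SE 0.45, adjusted p = 0.056). The levels of miR-297b-3p were -11.02, -11.17, -9.55, -10.68 and -9.06 at PTD 15 and -7.99, -9.55, -8.19 and -8.41 at PTD 30, with only the -9.55 of PTD 30 reaching the range of PTD 15. The groups of PTDs 15 and 30 were run in different periods, and time and run period cannot be told apart at this step.

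Values of the direct neighbours miR-297b and miR-466d are set side by side, and their difference was not tested. At PTDs 7 and 15 miR-297b-3p was at -0.36 and -0.67 against the controls, with exact permutation p = 0.52 and 0.29, beside 1.85 and 2.20 for miR-466d-5p and -0.40 and 0.01 for miR-466d-3p. With same-period controls miR-297b-3p was at -0.03 and -0.35 at these PTDs. Its PTD 7 value included replicate 5, at -8.85, beside -10.37 to -10.16 in the other livers. At PTDs 30 and 120 the 3 assays were all above 0, with 1.09 and 0.94 for miR-297b-3p, 0.72 and 0.63 for miR-466d-5p and 0.61 and 0.93 for miR-466d-3p. With the 2 controls that shared their run period, miR-297b-3p was at 0.09 and -0.06, miR-466d-5p at 0.47 and 0.38 and miR-466d-3p at -0.47 and -0.15.

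A single liver carried much of the members' shift at PTD 120. In replicate 4 the members were higher than in the mean of the other 3 livers by a median of 1.48, with 9 of 16 higher by more than 1, whereas over all 376 miRNAs the median was -0.0012 and 58 were higher by more than 1. The levels of miR-669a at PTD 120 were -7.71, -6.49, -7.23 and -4.96, and those of miR-467e were -6.70, -6.39, -6.67 and -4.89. Likewise, those of miR-467c were -7.23, -6.67, -7.50 and -5.36, those of miR-466b-5p -12.19, -11.32, -12.55 and -9.15 and those of miR-669b -11.00, -10.41, -10.61 and -7.93, each with replicate 4 on top. By contrast, miR-297b-3p, miR-466d-5p and miR-466g were lowest in replicate 4, and miR-466f-3p and miR-467b* were neither lowest nor highest in it. Without it, the members' median log2 fold change at PTD 120 was 0.52, against 0.43 over all miRNAs. Its reference RNAs had a mean Ct of 21.5, against 21.9 to 22.3 in the other 3 arrays, and its control well difference was -0.23, against -0.16 to -0.10. Their part in the members' levels was not tested.

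Within groups, the members varied together about as much as other miRNAs did. Over the 35 arrays, with each group's mean removed, the median Pearson r was 0.37 over the 120 pairs of members and 0.32 over all pairs of the 376 miRNAs. Pairs of the same subfamily had a median of 0.35 (37 pairs) and pairs of different subfamilies 0.39 (83 pairs). The highest values were 0.82 for miR-467e with miR-669a and 0.80 for miR-466d-3p with miR-669c. In contrast, miR-466d-5p had r between -0.12 and 0.26 with the other 15 members. All pairs share the arrays and their reference RNAs.

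The calls depended on which controls were used. The day 1 controls were lower than the day 30 controls for 16 of 16 members, by 0.88 in the median, and for 341 of 376 miRNAs, by 1.00. The label of the day and the run period cannot be told apart here. Against the 3 controls of their own run period, 5 members were DEMs at PTD 7 (4 up and 1 down) against 33% of all miRNAs, and 6 at PTD 15 (all up) against 40.4%. At PTD 7 these were miR-466d-5p, miR-466b-5p (1.48), miR-466f-3p (1.34), miR-467b* (1.29) and miR-669a. At PTD 15 they were miR-466d-5p, miR-466a-5p (2.57), miR-467c (1.73), miR-669b (1.35), miR-466f-3p (1.27) and miR-466c-5p (1.21). Other values also moved with same-period controls. At PTD 1, where replicate 4 was also left out, miR-669c was at -0.36 in place of -0.92. At PTD 120 miR-466a-5p was at 1.06, miR-466b-5p at 0.12 and miR-467c at 0.87, all lower than with the 7 controls. For miR-467a* the values at PTDs 3, 7 and 15 were 0.14, 0.45 and 0.32, and for miR-467e they were -0.54, -0.54 and -0.61.

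In comparison, the 2 other miRNA clusters examined had no up-regulated DEM against the 7 controls at PTDs 7 and 15, where 2.39% and 6.65% of all miRNAs were up-regulated and 7.45% and 4.79% down-regulated. The 18 assays of a rodent cluster on the X chromosome had 3 DEMs at PTD 7 and 5 at PTD 15, all down-regulated, with medians of -0.35 and -0.22. The 9 assays of the embryonic miR-290 cluster had 1 down-regulated DEM at each of these PTDs, with medians of 0.27 and -0.76. With only same-period controls, however, the X chromosome cluster had 3 DEMs up and 3 down at PTD 7 and 5 up and 3 down at PTD 15, and the miR-290 cluster had 4 up and 2 down, then 3 up and 2 down. With these controls 26.9% of all miRNAs were up and 6.12% down at PTD 7, and 35.6% were up and 4.79% down at PTD 15. Among the markers of other cells, the erythroid miR-144 and miR-451 were both up-regulated DEMs at PTD 15 (1.52 and 1.04), miR-150 of lymphocytes was down at PTD 1 (-1.72) and miR-142-3p of leukocytes was up at PTD 120 (1.35). The other 12 marker assays were not DEMs at any PTD, and the part of blood cells in the members' levels was not tested.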

How the data were processed

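For each array the authors deposited the Ct of every well without normalization, calculated by SDS 2.3 with a threshold of 0.15 and an automatic baseline over 40 cycles. A Ct is a cycle number, so it carries no read depth, and precision was limited by the number of arrays. Assay names came from the well list in the study's supplement. The members and gene lists were chosen with earlier results of these data known. ΔCt was taken against the 4 reference RNAs, averaged per array, and Undetermined wells were treated as missing.

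Each ENU group was compared with the 7 controls on -ΔCt over all 376 miRNAs in limma (version 3.58.1, R 4.3.3), with Benjamini-Hochberg adjustment over the 376. Single miRNAs and the arm differences were tested by exact permutation over samples, two-sided (Python 3.11.15, numpy 2.4.6, pandas 2.3.3, scipy 1.17.1, matplotlib 3.10.9). Both tests were tested on simulated data. All members are named, and values in single livers are given for DEMs, for both arms of miR-466d and miR-466f, and, chosen after their values were seen, for miR-297b-3p, miR-467e and the members at PTD 120. Alternatives were other scalings, reference sets, treatments of high Cts, tests, control sets, run periods, a replicate block and samples left out. The study's methods divide the controls between the 2 days otherwise than the labels do, so the day is named only as a label. RefSeq's mature miRNAs (GRCm38.p6) matched 0 of the 16 members by name. Each array is 1 mouse, so p values measure the spread between these mice together with that between arrays and, among the controls, between run periods.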

Additional observations from a re-analysis of the deposited data

Results flagged for a closer look

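Within groups of 4 to 7 livers, 4 of 111 sets of values held a member in a liver far from the rest by Dixon's criterion, and chance alone gives about 1 in 20. They were miR-297b-3p in replicate 5 of PTD 7 (-8.85, against -10.37 to -10.16 in the other livers), miR-466d-3p in replicate 3 of PTD 3 (-10.03, against -8.91 to -8.62), miR-466f-3p in replicate 1 of PTD 3 (-4.46, against -7.19 to -6.77) and miR-467b* in replicate 3 of PTD 30 (-7.97, against -9.96 to -9.86). The array of replicate 3 at PTD 3 is the one whose deposited values differ from those the study tabulates.

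Between neighbouring PTDs, the difference of miR-297b-3p between PTD 30 and PTD 15 passed an adjusted p of 0.05, at 1.76 (adjusted p = 0.047 in limma, 1 fit of all groups). These groups were run in different periods, so time and run period cannot be told apart.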

How the results depend on the processing

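Of the 16 members, 0, 0, 2, 1, 0 and 1 were DEMs from the first PTD to the last. With the day 1 controls alone the counts at PTDs 7, 15, 30 and 120 were 5, 6, 4 and 4. With the day 30 controls alone they were 2 at PTD 1, 1 at PTD 7 and 0 at PTD 120. Within the run period they were 5, 6 and 0 at PTDs 7, 15 and 120, and with run period as a term in 1 fit 1, 3, 4 and 0 at PTDs 3, 7, 15 and 120, where the 3 (miR-669a, miR-466a-5p and miR-466f-3p) and the 4 (miR-466a-5p, miR-466f-3p, miR-466g and miR-467c) did not include miR-466d-5p. Both 1 fit of all groups and the control well covariate gave 1, 2 and 3 at PTDs 7, 15 and 120. The replicate block gave 0 at PTDs 7 and 120 and 1 at PTD 15, and nothing pairs same-numbered mice, whose deviations correlated between -0.30 and 0.52. Cts above 35 set to 35 gave 1 at PTD 7. The methods' t-test gave 1 at PTD 7 on ΔCt and 0 on 2 to the power of -ΔCt, and 0 at PTD 120 on both. An adjusted p under 0.05 gave 1 at PTD 7 and 0 at PTD 120. Leaving out U6 gave 3 at PTD 15, and leaving out snoRNA202, snoRNA142 or U6, or scaling to the array median, gave 0 at PTD 120. With 1 sample left out the counts were 0 to 1, 0 to 1, 1 to 2, 1 to 2, 0 to 2 and 0 to 2. The counts above those first given came without replicate 5 of PTD 1, replicate 2 of PTD 3, replicate 5 of PTD 15 or replicates 3 or 4 of the day 30 controls (at PTD 15), and replicate 2 of the day 30 controls (at PTDs 30 and 120). At PTD 120 the call of miR-466c-5p was lost without any 1 of the 3 day 1 controls, replicate 4 of the day 30 controls or replicates 2, 3 and 4 of the ENU group. The cause was not tested.

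The arm shift of miR-466d was 1.92 at PTD 7 and 1.86 at PTD 15 both with the day 1 controls alone and within the run period, which hold the same 3 controls, with adjusted exact p = 0.14 and 0.11 in a design whose smallest unadjusted p is 0.018. With 1 sample left out it was 1.90 to 2.47 and 1.84 to 2.40, with an adjusted p above 0.05 without replicates 1, 2 or 4 of PTD 7 (highest 0.091) or replicates 1 to 4 of PTD 15 (highest 0.073). No call reversed, and 27 of the 92 member values that were not DEMs became DEMs under at least 1 alternative. High Cts limit miR-466a-5p, miR-466d-5p and miR-466b-5p most.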
